A study of Mus musculus with 6 samples.

Results

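The 38 genes described here mark blood endothelial cells, the cells that line blood vessels. They were taken from a list of symbols by matching each to the gene names of the deposited table, in which they occupy 39 of 28539 loci and are 38 of 23841 named genes. All 38 were found, and Cd34 is on 2 loci. Polyadenylated RNA was measured in whole mouse corneas (female C57BL/6J, 6 to 8 weeks old, per the labels) in 3 groups of 2 samples. The corneas of the day 5 and day 15 groups had been burned with alkali that many days earlier, and those of day 0 were uninjured and untreated. The submitters' protocol calls day 15 a time of regression. Nothing in the labels ties the samples of a group to separate mice, or gives the corneas in each.

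The cornea is normally free of blood vessels, which end at its rim, the limbus, and a chemical burn draws sprouts from there into the tissue. A sprout is led by tip cells, which secrete matrix-binding factors and signal through Notch to the stalk cells behind them. Stalk cells join through cadherin and claudin junctions, and transcription factors of the ETS and SOXF families set much of the endothelial gene programme.

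The values are FPKM, fragments per kilobase of transcript scaled to library size, and each group has 1 value for its samples together. The range after a value is the authors' interval for that group. With 1 pooled value per group there is no spread between replicates, so the comparisons below carry neither a test nor a p-value. A gene is called apart between 2 groups where the intervals do not overlap, FPKM is at least 1 in the higher group and the log2 ratio of (FPKM + 1) is at least 1 in size. Log2 ratios below are all on that scale, which understates the difference of low genes, whereas folds are plain ratios of FPKM. In whole tissue, more endothelial cells and more RNA per endothelial cell cannot be told apart.

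Nearly all of the genes had a higher value in burned corneas. At day 5, 36 of the 38 stood above day 0, and at day 15 again 36 of 38. Of the 38, 11 (28.9%) were higher and apart at day 5, against 3.42% of the 15576 loci that reached FPKM of 1 in the higher group. At day 15, 12 (31.6%) were higher and apart, against 2.91% of 15186 loci. The shares of genes are over all 38, of which 35 reached that FPKM at day 5 and 32 at day 15. Over all 28539 loci, without that filter, 1.87% and 1.55% were higher and apart. None was lower and apart at either time, where 2.5% and 1.81% of loci were. By the log2 ratio alone, without the intervals, 23 genes were higher at day 5, against 10.8% of loci, and 21 at day 15, against 8.36%. On the same terms 1 gene, Jam2, was lower at day 5, against 11.1% of loci, and none at day 15, against 9.43%.

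The median log2 ratio over all 38 genes was 1.38 at day 5 and 1.05 at day 15, where the median over all loci of the table was 0 in both comparisons. For the 35 genes with FPKM of at least 1 in some group the medians were 1.42 and 1.096, beside -0.08 and -0.08 over the 15901 loci that passed the same filter. The remaining 3, Sox17, Tal1 and Nos3, were below FPKM of 1 in every group. The median FPKM of the 38 was 1.46 at day 0, 6.03 at day 5 and 5.72 at day 15. FPKM reached at least 1 for 24 genes at day 0, 35 at day 5 and 32 at day 15, and none was listed at 0. The same 9 genes were higher and apart at both times: Pecam1, Cdh5, Vwf, Emcn, Erg, Aplnr, S1pr1, Cd93 and Icam1. Esm1 and Sele were so at day 5 and not at day 15, and Plvap, Mmrn2 and Clec14a at day 15 and not at day 5. The other 24 were apart at neither time. Both comparisons share the day 0 samples.

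**Figure D1:**
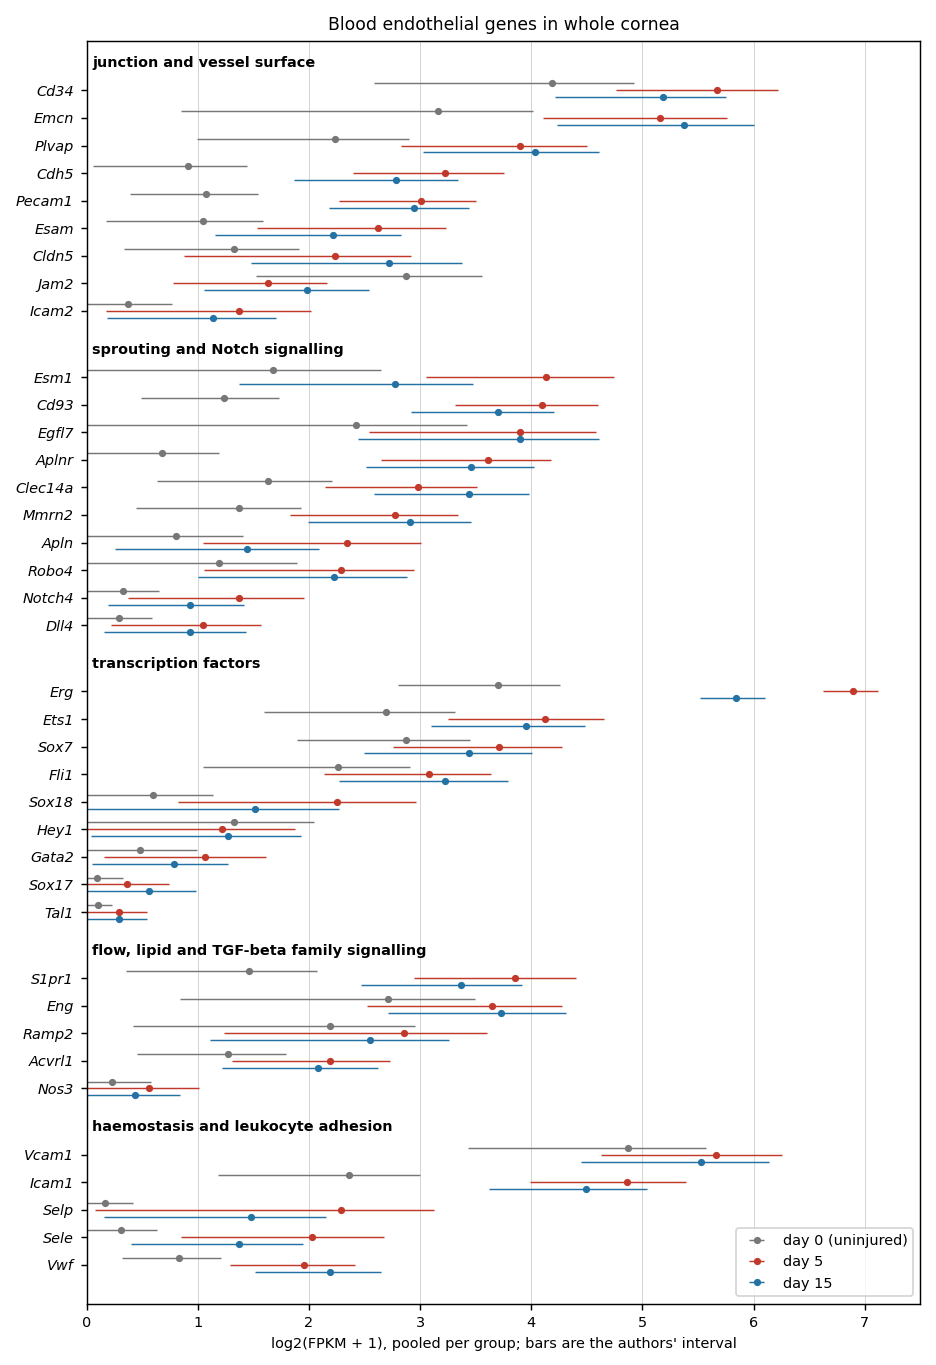
Level of each of the 38 genes as log2(FPKM + 1) at day 0 (grey), day 5 (red) and day 15 (blue), grouped by role and ordered by day 5 FPKM within it. Points are pooled group values and bars the authors' intervals. Erg, at 118 FPKM on day 5, is the highest gene and has the shortest bars for its level at days 5 and 15, and Jam2 is the gene whose day 0 point lies well to the right of its other points.

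Of 9 junction and surface genes of the vessel wall, 8 had higher values than day 0 at both times, and Jam2 had lower ones. Pecam1, an adhesion molecule at endothelial cell contacts (chromosome 11, 106654218 to 106715410 on mm10, reverse strand), had 1.11 FPKM (0.313 to 1.90) at day 0, 7.06 (3.81 to 10.3) at day 5 and 6.70 (3.52 to 9.88) at day 15. Both burned groups lay above the upper bound of day 0, and they overlapped each other. Cdh5, the VE-cadherin that holds endothelial cells together (chromosome 8, 104101625 to 104144502, forward strand), stood at 0.878 (0.0382 to 1.72), 8.37 (4.28 to 12.5) and 5.90 (2.64 to 9.16). Its log2 ratio to day 0 was 2.32 at day 5 and 1.88 at day 15. Emcn, a sialomucin of capillaries and veins, had 7.97 FPKM (0.804 to 15.1), 34.7 (16.2 to 53.2) and 40.5 (17.8 to 63.1), so that the day 5 interval cleared that of day 0 by little. Plvap, which forms the diaphragms of fenestrae and caveolae, stood at 3.71 (0.987 to 6.44), 13.9 (6.11 to 21.7) and 15.3 (7.17 to 23.5), and was apart from day 0 at day 15 alone.

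The tight junction protein gene Cldn5 had 1.51 (0.263 to 2.76) at day 0, 3.69 (0.834 to 6.55) at day 5 and 5.60 (1.79 to 9.41) at day 15. It had the largest log2 ratio of day 15 to day 5 among the 38, at 0.49, with intervals that overlapped. The adhesion molecule gene Esam stood at 1.07, 5.14 and 3.66, and Icam2, a ligand of leukocyte integrins at junctions, at 0.296, 1.59 and 1.20. Neither was apart. Cd34, a sialomucin of capillary endothelium that keratocytes and blood progenitors also carry, was already at 17.2 (4.99 to 29.4) at day 0 and stood at 49.9 (26.1 to 73.7) and 35.3 (17.5 to 53.0) afterwards. That locus spans 4.49 times the annotated gene, and the second Cd34 locus had 0.0609, 0.408 and 0.249 FPKM. Jam2, an adhesion molecule of endothelial tight junctions, had lower values after the burn: 6.31 (1.88 to 10.7), 2.098 (0.718 to 3.48) and 2.95 (1.09 to 4.82), with overlapping intervals. Its log2 ratio of -1.24 at day 5 was the lowest of the 38. In all, 3 of these 9 genes were higher and apart at day 5 and 4 at day 15. Their median log2 ratios to day 0 were 1.57 and 1.39.

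Among 10 genes of sprouting and Notch signalling, all 10 had a higher value than day 0 at both times, and 3 were higher and apart at day 5 and 4 at day 15. Aplnr, the receptor of apelin on sprouting and venous endothelium (chromosome 2, 85136360 to 85139923, forward strand), had 0.601 (0 to 1.29) at day 0, 11.2 (5.26 to 17.1) at day 5 and 9.99 (4.72 to 15.3) at day 15. The log2 ratios of 2.93 and 2.78 to day 0 were the largest in this group at each time. Apln, the ligand, which tip cells secrete, stood at 0.748 (0 to 1.65), 4.06 (1.07 to 7.06) and 1.72 (0.193 to 3.25). Aplnr at day 15 was 0.893 of its day 5 value and Apln 0.424 of its own; neither was apart between day 15 and day 5, and the difference between receptor and ligand was not tested.

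Esm1, a secreted proteoglycan known as endocan and a marker of tip cells (chromosome 13, 113209659 to 113218104, forward strand), showed a like order of levels to Apln. It stood at 2.204 (0 to 5.25) at day 0, 16.5 (7.30 to 25.8) at day 5 and 5.85 (1.58 to 10.1) at day 15. Day 5 was apart from day 0, while day 15 overlapped both. Its log2 ratio of day 15 to day 5, -1.36, was the lowest of the 38 genes. The Notch ligand gene Dll4, also of tip cells, was low throughout at 0.223, 1.07 and 0.907. The Notch receptor gene Notch4 stood at 0.258 (0 to 0.572), 1.59 (0.297 to 2.89) and 0.910 (0.146 to 1.67). Neither was apart from day 0. Notch1, another Notch receptor gene, taken from the partner list below and on a locus that also names Mir6996, had 9.45, 11.8 and 10.3, not apart. Robo4, a receptor that stabilises vessels, had 1.28, 3.90 and 3.68.

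Clec14a and Cd93 encode lectin-like receptors of the endothelial surface, and Mmrn2 encodes multimerin 2, an extracellular matrix protein that both bind. Cd93 had 1.36 (0.403 to 2.32) at day 0, 16.1 (8.97 to 23.2) at day 5 and 12.004 (6.55 to 17.5) at day 15, and was apart at both times. Mmrn2 stood at 1.58 (0.357 to 2.81), 5.83 (2.56 to 9.11) and 6.50 (2.98 to 10.02), and Clec14a at 2.09 (0.553 to 3.63), 6.90 (3.41 to 10.4) and 9.88 (5.00 to 14.8). These 2 genes were apart from day 0 only at day 15, and their day 5 lower bounds fell just short of the day 0 upper bounds. The ratio of day 15 to day 5 was 0.746 for Cd93, which myeloid cells also express, 1.11 for Mmrn2 and 1.43 for Clec14a.

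Egfl7, a secreted regulator of vessel growth, is on a locus that also names Mir126a, the microRNA in one of its introns, so that its value may hold both. The locus spans 1.79 times the annotated gene. It had 4.35 (0 to 9.75) at day 0, 13.9 (4.80 to 22.9) at day 5 and 13.9 (4.42 to 23.4) at day 15, and was not apart. The mature microRNA, known for keeping endothelial cells responsive to growth factors, is shown because the table cannot separate its precursor from the host gene; small RNAs themselves were not measured in these libraries. The RefSeq sequence (GRCm38.p6, chr2:26591402-26591423, forward strand) has its seed, bases 2 to 8, in capitals.
mmu-miR-126a-3p: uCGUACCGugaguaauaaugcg

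Of 9 transcription factor genes, Erg alone was higher and apart, at both times. The median log2 ratio to day 0 of the 9 was 0.82 for day 5 and 0.57 for day 15. Erg, an ETS factor that maintains endothelial identity (chromosome 16, 95358772 to 95586684, reverse strand), had 12.04 (5.97 to 18.1) at day 0, 118 (97.9 to 138) at day 5 and 56.3 (44.8 to 67.8) at day 15. The 3 intervals did not overlap, and Erg was the only one of the 38 apart between day 15 and day 5. That call depends on the width of its intervals at days 5 and 15, which were far narrower than those of the other genes. Esm1 had a lower log2 ratio of day 15 to day 5 than Erg (-1.36 against -1.06), but its wider intervals overlapped. The other ETS factors were nearer to day 0: Ets1 stood at 5.48 (2.02 to 8.94), 16.4 (8.53 to 24.2) and 14.5 (7.57 to 21.4), and Fli1 at 3.78 (1.06 to 6.51), 7.43 (3.40 to 11.5) and 8.33 (3.81 to 12.8). Both are also expressed in leukocytes.

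The Erg value differs from those of the other endothelial genes in level and in precision. FPKM is scaled to length, and by that measure Erg was 13.7, 14.1 and 9.54 times Cdh5 at days 0, 5 and 15. The half-width of its interval was 17.0% of the FPKM at day 5, where 20 other genes of the set with FPKM of at least 5 lay between 44.2% and 78.2%. Over all 8850 loci with FPKM of at least 5 at day 5 the median half-width was 52.9%, and 5 loci were narrower than Erg. At day 15 the half-width was 20.4%, with 15 of 8696 loci narrower, and at day 0 it was 50.4%, with 3331 of 8848 narrower. No other annotated exon overlaps those of Erg, and the locus is as long as the annotated gene. What makes this interval narrow was not tested.

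**Figure D2:**
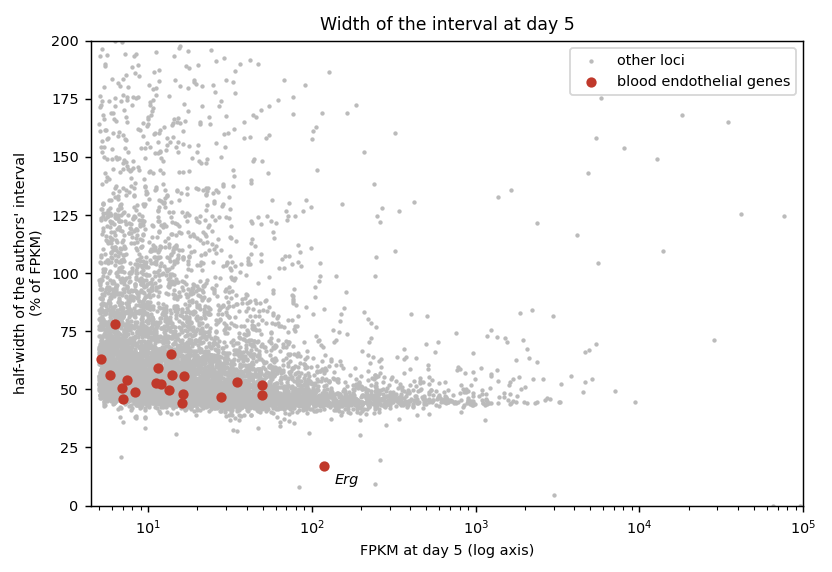
Half-width of the authors' interval, in percent of FPKM, against FPKM at day 5 (log axis) for loci with FPKM of at least 5. Red points are loci of the blood endothelial genes and grey points all other loci; 223 grey loci beyond 200% or beyond 100000 FPKM are not drawn. Erg lies at 17.0%, below the 44.2% of the next narrowest gene of the set.

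The SOXF factors Sox7, Sox17 and Sox18, which act together in vessel formation, were at different levels. Sox7 had 6.33 (2.72 to 9.95) at day 0, 12.1 (5.75 to 18.4) at day 5 and 9.88 (4.65 to 15.1) at day 15. Sox18 stood at 0.509 (0 to 1.20), 3.78 (0.767 to 6.79) and 1.86 (0 to 3.84), and Sox17, the arterial member, at 0.0662, 0.288 and 0.471. None was apart from day 0. The order of levels was Sox7, Sox18, Sox17 in each group; the intervals of Sox18 and Sox17 overlapped at days 0 and 15, and those of Sox7 and Sox18 at day 5. Hey1, a Notch target and repressor, had 1.499 (0 to 3.14), 1.33 (0 to 2.67) and 1.42 (0.0281 to 2.81), the nearest to no difference from day 0 among the 38. The blood and endothelial factor genes Gata2 (0.399, 1.09 and 0.729) and Tal1 (0.0746, 0.222 and 0.224) were low in all groups.

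Because ETS factors bind GGAA cores in endothelial promoters, the RefSeq promoters (GRCm38.p6, 250 bases before to 50 after the start) were searched on both strands for the ETS motifs CCGGAAG and CAGGAAG and the GATA motif AGATAAG. The ETS motifs differ at their second base, so they cannot both match at 1 position, but the ends of any of the motifs may overlap. Promoter sequences were found for 17 of the 38 genes. CAGGAAG occurred in promoters of 8 of the 17, Emcn, Robo4, Egfl7, Erg, Apln, Cd34, Notch4 and Sele, and in those of 14.8% of 27025 genes overall. CCGGAAG occurred in none of the 17 and in 9.93% of genes, and AGATAAG in Erg alone and in 3.50% of genes. A match describes the letters only and does not show a binding site, since binding was not measured. The 10 matches are shown with up to 10 flanking bases, read on the strand of the motif, with coordinates and strand of the window and the motif in capitals.
Apln, chrX:48034950-48034976 (+): ggaagagaggCAGGAAGagggagaggg
Cd34, chr1:194938669-194938695 (-): ttaagtgtggCAGGAAGccactgtgta
Egfl7, chr2:26580983-26581009 (+): gggagacaaaCAGGAAGgccatctctc
Egfl7, chr2:26581024-26581050 (-): agctgcacctCAGGAAGgaaagaccag
Egfl7, chr2:26583774-26583800 (+): agaacacacaCAGGAAGtccggcggga
Emcn, chr3:137340894-137340920 (-): gggatttgaaCAGGAAGagacccttct
Erg, chr16:95459372-95459398 (+): cagccaatggCAGGAAGaggtttctat
Notch4, chr17:34564045-34564066 (-): tactgtgaccCAGGAAGggcag
Robo4, chr9:37401912-37401938 (+): gagggccaggCAGGAAGcatccgtttc
Sele, chr1:164048158-164048184 (+): ctatgactcaCAGGAAGccagctcccc
The base before the motif was A in 4 of the 10 windows and the base after it T in 1. Of the genes with a promoter sequence, Emcn and Erg are the junction, sprouting or transcription factor genes apart from day 0 at both times, and their promoters are given whole, in the direction of the gene, with motif matches in capitals (as reverse complements, since all lie on the other strand). Erg has 3 annotated starts in that table; the one shown is the one with matches, to the ETS motif 40 bases and to the GATA motif 104 bases before the start, and the other 2 promoters held none.
Emcn, chr3:137340828-137341127 (+): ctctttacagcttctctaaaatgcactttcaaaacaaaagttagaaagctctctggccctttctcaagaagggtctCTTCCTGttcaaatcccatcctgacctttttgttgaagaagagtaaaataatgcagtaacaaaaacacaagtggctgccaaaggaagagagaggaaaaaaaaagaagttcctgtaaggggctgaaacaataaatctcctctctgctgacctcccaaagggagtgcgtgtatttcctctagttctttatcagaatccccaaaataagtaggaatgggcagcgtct
Erg, chr16:95459299-95459598 (-): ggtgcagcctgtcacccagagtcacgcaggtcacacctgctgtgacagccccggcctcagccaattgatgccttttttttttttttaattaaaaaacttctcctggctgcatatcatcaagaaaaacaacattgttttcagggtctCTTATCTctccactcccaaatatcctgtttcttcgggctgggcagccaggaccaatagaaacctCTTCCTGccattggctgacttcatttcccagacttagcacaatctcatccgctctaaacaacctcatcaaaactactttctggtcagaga

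**Figure D3:**
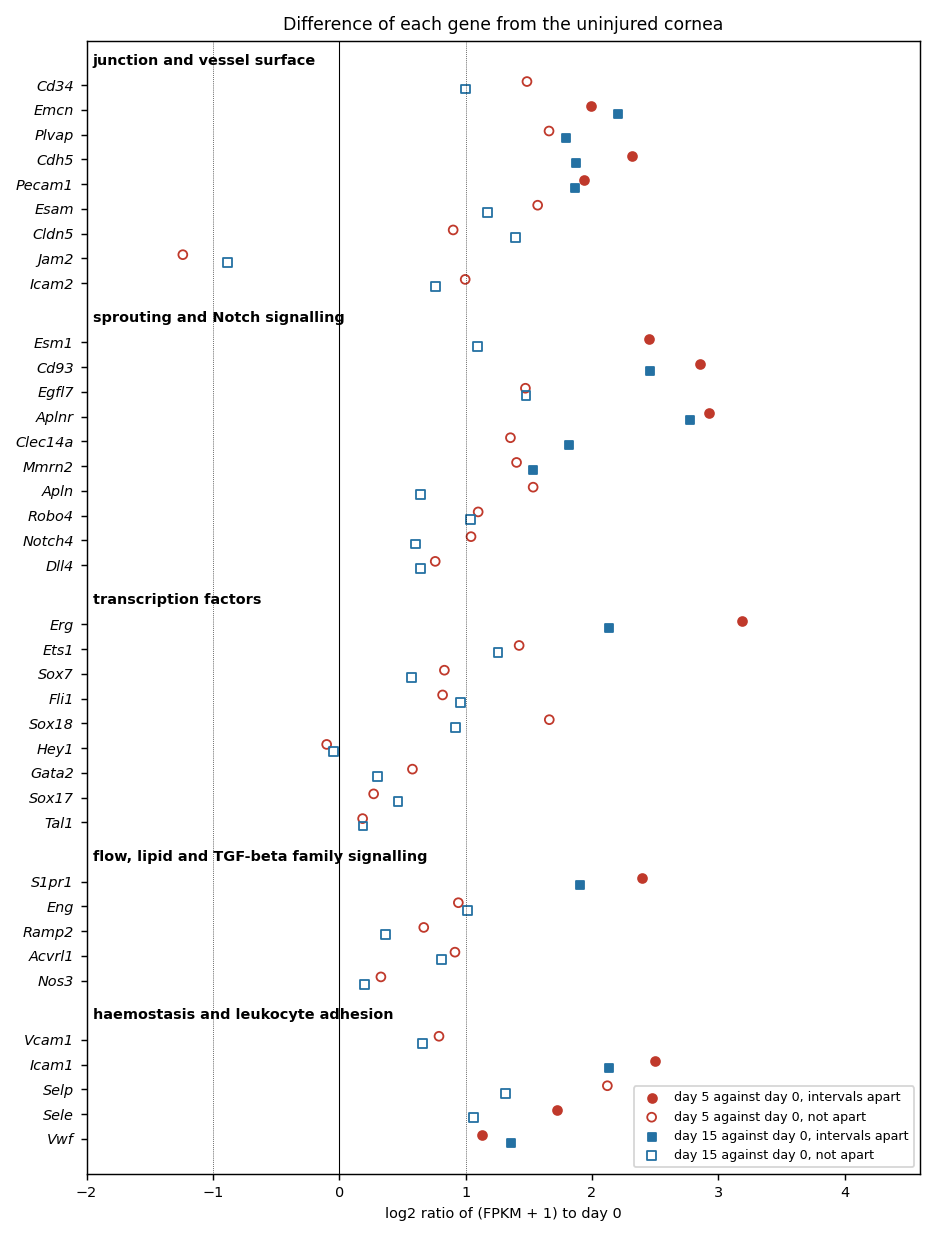
Log2 ratio of (FPKM + 1) of day 5 (red circles) and day 15 (blue squares) to day 0 for each of the 38 genes, by role. Filled symbols are apart by the interval rule, open symbols are not, and dotted lines mark ratios of 1 and -1. Filled symbols are found in every role, but among transcription factors only for Erg; Jam2 and Hey1 lie left of 0 at both times.

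Genes through which endothelium senses flow, lipids and TGF-beta family ligands were higher in value in all 5 cases, and 1 was apart. S1pr1, the receptor of sphingosine-1-phosphate that steadies junctions and that lymphocytes also carry, had 1.75 (0.276 to 3.22) at day 0, 13.4 (6.72 to 20.1) at day 5 and 9.31 (4.55 to 14.1) at day 15. It was apart from day 0 at both times, by log2 ratios of 2.39 and 1.91. Eng and Acvrl1, the co-receptor endoglin and the receptor ALK1 that together bind BMP9 and BMP10, were not apart. Eng stood at 5.53 (0.787 to 10.3), 11.6 (4.73 to 18.4) and 12.2 (5.55 to 18.9), on a locus 1.32 times the annotated gene with an exon that overlaps Fpgs on the other strand. Acvrl1 had 1.41 (0.368 to 2.46), 3.55 (1.48 to 5.63) and 3.23 (1.32 to 5.14). Ramp2, which turns the calcitonin receptor-like receptor into an adrenomedullin receptor, was at 3.55, 6.23 and 4.86 on a locus 0.142 times the annotated gene that shares an exon stretch with Vps25, and Nos3, the endothelial nitric oxide synthase, at 0.174, 0.475 and 0.351.

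Of 5 genes of haemostasis and leukocyte adhesion, all had higher values in both burned groups, and 3 were higher and apart at day 5 and 2 at day 15. Icam1, the integrin ligand on which leukocytes stop (chromosome 9, 21015960 to 21028796, forward strand), had 4.14 (1.27 to 7.01) at day 0, 28.0 (14.9 to 41.1) at day 5 and 21.6 (11.3 to 31.9) at day 15, apart at both times. Vwf, the platelet-binding factor stored in endothelial granules, stood at 0.776 (0.244 to 1.31), 2.88 (1.45 to 4.32) and 3.55 (1.85 to 5.25), also apart at both times. The selectins, on which leukocytes roll, were low at day 0. Sele had 0.236 (0 to 0.549), 3.09 (0.796 to 5.38) and 1.58 (0.318 to 2.85), apart at day 5 alone. Selp had 0.120 (0 to 0.339), 3.88 (0.0509 to 7.70) and 1.79 (0.115 to 3.46); its folds over day 0 were 32.3 and 14.9, with 32.3 the largest of the set at day 5, but the intervals overlapped day 0 and the locus spans 3.02 times the annotated gene. Vcam1, an integrin ligand that stromal cells also express, was the highest of the 38 at day 0 and stood at 28.2 (9.81 to 46.6), 49.5 (23.7 to 75.3) and 45.1 (20.8 to 69.3), not apart. Both Icam1 and Vcam1 are induced by cytokines in many cell types.

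Between the burned groups the set as a whole was close. Day 15 had the lower value for 25 genes and the higher for 13, with a median log2 ratio of -0.14 over all 38 and -0.17 over the 35 with FPKM of at least 1 in some group, beside 0 and -0.01 over loci. Erg, whose intervals were unusually narrow, was lower and apart at day 15, 1 of 38 genes, where 0.388% of 14683 loci were. None was higher and apart, where 0.395% were. By the log2 ratio alone Erg and Esm1 were lower, where 3.35% of loci were, and none was higher, where 2.62% were. The lowest ratios after these were those of Apln (-0.89), Selp (-0.81), Sox18 (-0.74) and Sele (-0.66), and the highest those of Cldn5 (0.49), Clec14a (0.46), Jam2 (0.35) and Vwf (0.23). By role, the median was -0.36 for haemostasis and adhesion, -0.17 for transcription factors, -0.13 for sprouting and Notch genes, -0.13 for signalling and -0.07 for junction genes, all with overlapping intervals except for Erg.

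**Figure D4:**
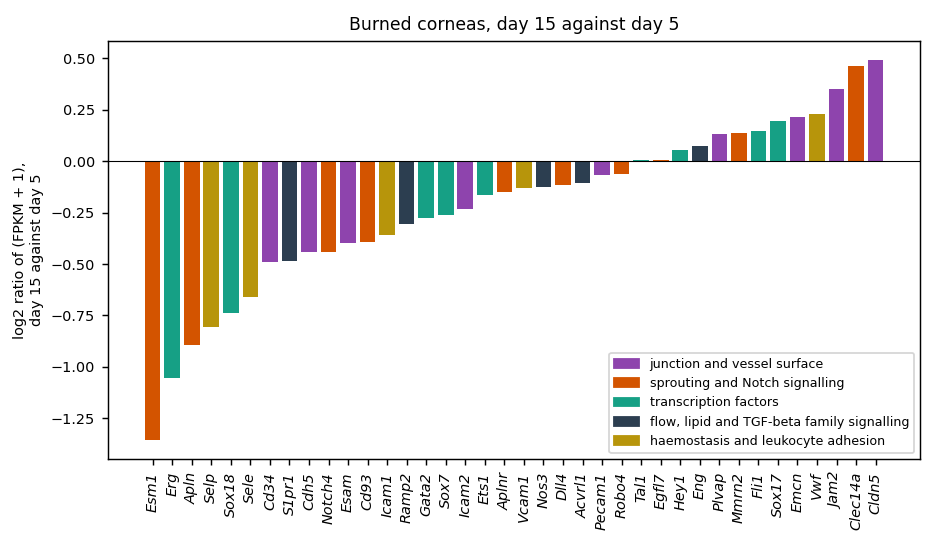
Log2 ratio of (FPKM + 1) of day 15 to day 5 for the 38 genes, in order, coloured by role. Bars below 0 are lower at day 15: Esm1 at -1.36 and Erg at -1.06 lie lowest and Cldn5 at 0.49 highest.

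Partner genes were read from a separate list. Of 51 binding partners and pathway genes, 5 were higher and 1 lower and apart at day 5. At day 15, 2 were higher and none lower. Over the loci that reached FPKM of 1, 3.42% were higher and 2.5% lower and apart at day 5, and 2.91% and 1.81% at day 15. The 1 lower gene at day 5 and the 2 higher at day 15 were near those shares, which stand beside the counts of all lists below as well. The median log2 ratios of the 51 were 0.34 and 0.27. Higher at day 5 were Tek, the receptor of angiopoietins (0.492, 2.52 and 2.78 at days 0, 5 and 15), Smad1, which carries BMP signals from Acvrl1 and Eng (6.06, 20.0 and 16.8), the sphingosine-1-phosphate receptor gene S1pr3 (0.449, 3.16 and 1.78), Selplg, the selectin ligand on leukocytes (0.688, 7.11 and 3.57), and Itgb2, the leukocyte integrin chain that binds Icam1 (1.63, 13.1 and 11.1). Tek and Itgb2 were apart at day 15 as well. Klf4, a factor of flow-exposed endothelium and of epithelium, was lower and apart at day 5 (73.1, 27.0 and 31.8). Kdr, the main VEGF receptor and a partner of Cdh5, stood at 3.66, 3.47 and 3.88 and was not apart, nor were Flt1 (0.967, 4.12 and 3.96) and Tie1 (1.77, 5.15 and 4.77). The BMP9 gene Gdf2 was listed at 0 in every group, the Notch ligand gene Jag1 was at 25.4, 17.1 and 29.7, and the Notch target gene Hes1 at 293, 187 and 208, neither apart.

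Of 39 other blood endothelial markers found in the table, 5 were higher and 1 lower and apart at day 5 and 8 and 1 at day 15, with medians of 0.91 and 0.97. Ecscr, an endothelial surface regulator of migration, had 7.30 (0.315 to 14.3) at day 0, 40.7 (17.2 to 64.1) at day 5 and 30.8 (11.8 to 49.9) at day 15, apart at day 5 alone, as was the surface marker gene Ly6c1 (14.7, 78.4 and 61.2). Tm4sf1, a tetraspanin-like protein of endothelium and of other cells, stood at 3.93, 28.4 and 18.6, and the adhesion receptor gene Eltd1 (now Adgrl4) at 2.69, 10.8 and 10.47, both apart at both times. The lower gene was the water channel gene Aqp1 (157, 50.5 and 51.9), which stromal and corneal endothelial cells also express. Of these 39, 25 had a higher value at day 15 than at day 5.

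Markers of other cells differed between the same groups. Of 14 leukocyte markers found, 5 were higher and apart at day 5 (Lcp1, Laptm5, Cd53, Tyrobp and Fcer1g) and, with Emr1, 6 at day 15, and the 13 on loci of their own summed to 74.9, 298 and 278 FPKM at days 0, 5 and 15. That list bears on Icam1, Cd93, Pecam1, S1pr1, Fli1 and Ets1, which leukocytes share, and its part in their values was not tested. Of 12 mural cell markers, 3 were higher and apart at day 5 (Acta2, Mcam and Anpep) and 2 at day 15 (Acta2 and Mcam). The 12 summed to 83.4, 236 and 170, of which Acta2 had 17.1, 99.9 and 68.9. Values were lower than at day 0 for 3 mural markers at day 5 and 2 at day 15, none apart. Among them Notch3 had 27.01, 12.2 and 13.2, and Des 3.13, 2.64 and 0.758. Red cell markers summed to 15.6, 211 and 77.4 over 9 genes. Higher and apart were 3 globin genes at day 5 (Hba-a2, Hbb-bs and Hbb-bt) and 2 at day 15 (Hba-a2 and Hbb-bs). Alas2, of haem synthesis in red cell precursors, had 8.27, 5.79 and 4.01. Platelet markers, which bear on Vwf, Selp and Pecam1, had 2 higher (Pf4 and Itgb3) and 1 lower and apart at day 5. At day 15 only Pf4 was higher and apart. The lower gene, Gp1bb (21.4, 7.25 and 13.7), is on a locus that also names Sept5 and was left out of the sums. Pf4 had 11.5, 137 and 107 of the 23.2, 146 and 115 summed over 11 genes. The platelet glycoprotein gene Gp6 was listed at 0 in every group and Gp9 at days 0 and 5.

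None of 7 lymphatic markers was apart at either time: Prox1, which sets lymphatic identity, had 0.629, 0.880 and 1.69. The list summed to 38.8, 89.5 and 78.1, mostly Pdpn, which stroma shares. Its gene Flt4 is also on the list of other blood endothelial markers. Mast cell markers, which bear on Gata2, Tal1 and Cd34, summed to 48.6, 92.0 and 25.5. Hdc, which makes histamine, was higher and apart at day 5 and supplied the higher sum there, with 0.761, 61.5 and 4.70. Of the other mast cell markers none was apart. Counting Hdc, 7 of the 9 had a higher value than day 0 at day 5 and 5 at day 15. The 2 with lower values at day 5 were Cpa3 (14.4, 0.201 and 0) and Kit (21.5, 13.3 and 9.65). Both were also lower at day 15, and the day 0 interval of Cpa3 ran from 0 to 43.6. Of 12 keratocyte and fibroblast markers, which bear on Cd34 and Vcam1, 2 were higher and 5 lower and apart at day 5. At day 15, 1 was higher and 4 lower and apart. Higher were Thy1 (1.71, 15.3 and 9.76) at both times and, at day 5 alone, Pdgfra, on a locus that also names Mir7025. Lower were Kera (516, 11.2 and 16.2), Aldh1a1, Chst5 and Angptl7 at both times, and Ptgds at day 5 alone. The 10 genes on loci of their own summed to 6417, 3883 and 5287, of which Dcn had 3484, 1388 and 2104. Of 8 corneal endothelial markers, 2 were higher and 1, Slc4a11, lower and apart at each time (higher were Col8a1 and Car12), with sums of 216, 373 and 342, of which Car12 had 4.17, 124 and 128. Of 10 corneal epithelial markers, which check the tissue, 2 were lower and apart at day 5 and none at day 15. These were Aldh3a1, an abundant corneal protein (9149.9, 303 and 866 FPKM at days 0, 5 and 15), and Upk1b (995, 103 and 370). The day 0 value of Krt12 carried a failed status and was not used.

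**Figure D5:**
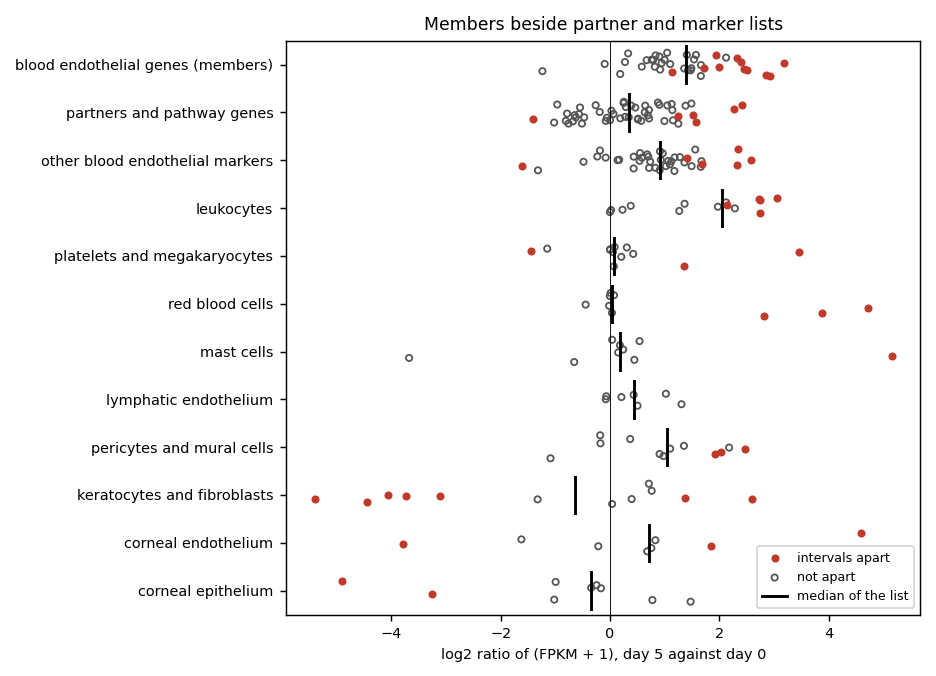
Log2 ratio of (FPKM + 1) of day 5 to day 0 for the 38 blood endothelial genes (top row) and for the partner and marker lists. Flt4 is drawn both among other endothelial markers and among lymphatic markers. Red points are apart by the interval rule, open points are not, and black bars are list medians: 1.38 for the 38 genes, 0.91 for other endothelial markers, 2.05 for leukocytes, 1.04 for mural cells and 0.43 for lymphatic markers.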

How the data were processed

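Libraries were made from polyadenylated RNA of whole corneas, per the labels' protocol, from 3 groups of 2. The deposited table gives FPKM, computed by the authors, as 1 pooled value per group with its interval and a status. It has 0 columns for single samples, and depth is unknown. TopHat2 2.1.0, Bowtie2 2.2.6, Cufflinks 2.2.1, Cuffdiff and mm10 are named in the submitters' processing notes. Strandedness is not given in the sources used here, so that 10 genes of the set whose exons overlap an exon on the other strand are uncertain: Eng, Egfl7, Sox17, Cd34, Dll4, Nos3, Acvrl1, Selp, Vcam1 and Icam1.

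From these values were computed log2 ratios with a pseudocount of 1, the interval rule at every locus, and counts and medians by role. Of 2 Cd34 loci the higher was used, as for list genes on several loci. Table starts are counted from 0 and were raised by 1. The annotation was GENCODE M21 (GRCm38), which matches mm10, and all 38 loci overlapped their annotated gene. The 38 genes, their roles and the lists were chosen with earlier results of these data known. All 38 are accounted for, and list genes are named where apart (at most 6 per list and comparison) or where they pair with a gene described. Alternatives varied the pseudocount, filter, scaling, fold, intervals and loci. Python 3.11.15, numpy 2.4.6, pandas 2.3.3 and matplotlib 3.10.9 were used.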

Additional observations from a re-analysis of the deposited data

How the results depend on the processing

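No paired analysis was possible because the table holds no columns for single samples, and leaving out replicates could not be run for the same reason. Requiring a log2 ratio of at least 2 left 7 genes apart at day 5, 5 at day 15 and 0 for day 15 against day 5. Without the intervals there were 24 (23 higher, and Jam2 lower), 21 and 2, and with each FPKM outside the interval of the other 21, 18 and 2. Apart from Jam2, all genes counted against day 0 were higher, and those counted for day 15 against day 5 were lower. Shares over all loci under the same rule are given above for the count without the intervals. They were not computed for the other alternatives, so those counts cannot be set against a background. Day 15 against day 5 gave 0 without Erg, an alternative chosen after seeing the data. Centring loci with FPKM of at least 5, whose median log2 ratio was -0.11 at day 5 and -0.08 at day 15, raised the day 5 count from 11 to 15 by adding Esam, Ets1, Plvap and Clec14a, and turned the sign of 3 ratios near 0: Hey1 at day 15 against day 0, and Egfl7 and Tal1 at day 15 against day 5. A pseudocount of 0.1 moved the median log2 ratio at day 15 from 1.096 to 1.69 and turned no sign. Under the other alternatives counts stayed within 1.5 times. Leaving out long loci and exon overlaps, also chosen after seeing the data, gave 10, 11 and 1. Depth is unknown, and the wide intervals of genes near or below FPKM of 1 limit what the rule can call.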

Other observations

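Of the 39 other endothelial markers, some that were apart from day 0 at day 15 are given here by value, and no grouping of them was tested. Gja5, the connexin of arterial endothelium, had 0.253 (0 to 0.564) at day 0, 2.33 (0.816 to 3.84) at day 5 and 3.10 (1.13 to 5.08) at day 15, apart from day 0 at both times. Bmx, a kinase of arterial endothelium, stood at 0.408, 2.18 and 2.97 and was apart at day 15. The venous genes Ephb4 (10.3, 11.7 and 11.6) and Nr2f2 (12.8, 11.1 and 13.3), both also expressed outside vessels, were not apart. Other arterial genes of the list were not apart either: Gja4 (1.76, 4.18 and 4.57), Efnb2 (4.78, 8.38 and 9.24) and Sema3g (0.309, 1.49 and 1.76). The venous gene Ackr1 (0.555, 2.38 and 2.05) was higher in value and not apart, whereas Aplnr, described above for sprouting and venous endothelium, was apart at both times.

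Fabp4, a fatty acid binding protein of capillaries and adipocytes, had 1.45 (0 to 3.30), 6.73 (1.17 to 12.3) and 17.8 (6.04 to 29.6), and the fatty acid transporter gene Cd36, which macrophages share, 1.71, 3.04 and 7.64. Nostrin, which binds the endothelial nitric oxide synthase, stood at 1.41, 3.69 and 8.36, and the prostaglandin transporter gene Slco2a1 at 2.62, 6.57 and 11.02. These 4 were apart from day 0 at day 15 and not at day 5, and none was apart between day 15 and day 5.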
